A study of Mus musculus with 22 samples.

Results

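The AP-1 and AP-2 clathrin adaptor complexes were examined here through 10 subunit genes, Ap1b1, Ap1m1, Ap1g1, Ap1g2 and Ap1s1 of AP-1 and Ap2a1, Ap2a2, Ap2b1, Ap2m1 and Ap2s1 of AP-2. All probes whose platform symbol was one of these names were taken, which gave 24 of the 38563 probes and 10 of the 18524 genes measured, 12 probes for each complex. The set was selected on the difference between the groups measured in these same mice, where Ap1b1 and Ap1m1 stood out, so that difference is given below as a description, and counts of subunits past a p threshold describe the selection only. Other subunits of the same complexes are given with the wider pathway.

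Gene expression was measured with Illumina MouseWG-6 v2 arrays in the gastrocnemius of 22 mice, 1 array per mouse. They were C57BL/6N males 8 to 12 weeks of age, and the labels call all of them non-diabetic. All 22 mice had the femoral artery removed to induce hindlimb ischemia. On day 5 after surgery, 11 mice received an intraperitoneal injection of ANTI-210, a locked nucleic acid oligonucleotide inhibitor of miR-210 (12 mg/kg), and 11 mice received the same dose of SCR, a scrambled control oligonucleotide. The muscle was taken on day 7, so both groups shared the surgery and a systemic oligonucleotide. Values are log2 intensities, so a difference of -1 is a halving of the signal. Probes differ in how brightly they bind their target, and levels were therefore compared only within a probe.

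An adaptor complex links cargo receptors in a membrane to the clathrin coat that buds a vesicle from it. AP-1 works at the trans-Golgi network and at endosomes, where it sorts cargo such as mannose 6-phosphate receptors, whereas AP-2 works at the plasma membrane in the internalisation of receptors such as the transferrin receptor. Each complex is a heterotetramer of a pair of large subunits, a medium and a small one. Ap1b1 and Ap2b1 encode the large beta subunits, which bind clathrin. Ap1g1 and Ap1g2 encode alternative gamma subunits of AP-1, and Ap2a1 and Ap2a2 alternative alpha subunits of AP-2, the large subunits that carry the complex to its membrane. The medium mu subunits, Ap1m1 and Ap2m1, read tyrosine-based sorting signals in the cargo tail, and the small sigma subunits, Ap1s1 and Ap2s1, take part in reading dileucine-based signals.

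The injected inhibitor is directed at miR-210, whose mature sequence is shown because it defines the treatment, with the seed (bases 2 to 8) in capitals (RefSeq, GRCm38.p6, chr7:141221407-141221428, minus strand).
mmu-miR-210-3p: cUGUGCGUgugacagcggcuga

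The genes of the 10 subunits lie on 6 chromosomes. Ap1b1 spans chr11:4947320-5042794 and Ap1m1 spans chr8:72240013-72257386 in GRCm38.p6. Promoter windows of 300 bases around a transcription start were found in RefSeq for 9 of the 10 genes, Ap1m1 being the one without an entry. The letters GGGCGG on either strand, the core of an Sp1 site, occurred in 8 of the 9 windows and in 35.7% of the 32851 windows of all genes. Ap1b1 and Ap2a1 held 4 copies each. The bases G and C made up 51.3% (Ap2b1) to 68.3% (Ap2a2) of the 9 windows, where the median of all windows was 52.7%. These counts were not matched for base composition. The Ap1b1 window, chr11:4986574-4986873, lay inside the span of the gene, and the sequence at the first base of that span was not examined. TATAAA, the TATA box, occurred in 0 of the 9 windows and in 13.6% of all windows. CCAAT occurred in 4 of the 9 windows and in 37.4% of all windows. ACGTG, 1 form of the core of the hypoxia response element, occurred in 1 of the 9 (Ap2m1) and in 19.6% of all windows. In Ap2m1 it lay within CACGTG, the letters of an E-box. The other form of the core, GCGTG, was not counted. For the gene that differed most and for the 2 small subunits that are compared below, the 30 bases around the copy of GGGCGG closest to the start are shown with that copy in capitals. They lie at chr11:4986803-4986832 on the plus strand, chr5:137046100-137046129 on the minus strand and chr7:16738464-16738493 on the plus strand, and CCGCCC is GGGCGG on the other strand.
Ap1b1: cccacacaggccCCGCCCaacaggtcccca
Ap1s1: ggcgaggccttgGGGCGGggcttcaagcgg
Ap2s1: caactgcaagcagagccggagCCGCCCtgt

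The arrays resembled each other with correlations between 0.947 and 0.997. Principal component 1 accounted for 63.6% of the variance and followed the cell makeup of the muscle, with a correlation of -0.96 with the mean of 11 macrophage markers in ANTI-210 mice and -0.97 in SCR mice. SCR replicates 6, 7 and 8 lay apart from the other 8 SCR mice on it. The second component (7.31%) separated replicate numbers 1 to 3 of both groups from numbers 4 to 11 without overlap, so values within each set of numbers are given for the main subunits. Within numbers 1 to 3 the groups also lay apart on component 1, at 21.9 to 36.7 in SCR mice and -59.7 to -12.2 in ANTI-210 mice. Treatment and cell makeup therefore cannot be told apart in differences among numbers 1 to 3. Muscle fibre markers were high on every array, with a mean over 14 markers of 14.1 to 14.6 in ANTI-210 mice and 14.1 to 14.6 in SCR mice.

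The beta and mu subunits of AP-1 were the members that differed most between the groups, and both were lower in ANTI-210 mice. Ap1b1 was lower by more than any other of the 18524 genes, at 31.1% of its level in SCR mice. Ap1m1 was at 65.3% of its SCR level, the second largest decrease. The other 8 subunits differed by -0.17 to 0.04 on the log2 scale.

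Ap1b1, read by 1 probe, measured 8.75, 8.68, 8.66, 8.77, 10.59, 8.98, 8.98, 8.75, 8.88, 8.91 and 9.39 in ANTI-210 replicates 1 to 11. In SCR replicates 1 to 11 it measured 10.63, 10.53, 10.66, 10.39, 10.65, 11.07, 10.95, 10.85, 10.69, 10.78 and 10.68. Thus 10 of the 11 ANTI-210 mice lay below the lowest SCR mouse, and ANTI-210 replicate 5 lay within the SCR range. The mean was 9.03 ± 0.56 in ANTI-210 mice and 10.72 ± 0.19 in SCR mice (SD, n = 11 each), a difference of -1.69 with a standard error of 0.17, or 3.22-fold lower. Without ANTI-210 replicate 5 the difference was -1.84. It was -1.91 among replicates 1 to 3 and -1.60 among replicates 4 to 11.

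Ap1m1 was read by 2 probes, and both gave lower values in ANTI-210 mice. The brighter probe measured 8.78 at the lowest, 9.05 at the median and 9.58 at the highest in ANTI-210 mice, against 9.27, 9.71 and 10.04 in SCR mice. The ranges overlapped, with 8 of 11 ANTI-210 mice below the lowest SCR mouse and all 11 below the SCR median. Its mean was 9.12 ± 0.28 in ANTI-210 mice and 9.74 ± 0.22 in SCR mice (SD, n = 11 each), a difference of -0.61 with a standard error of 0.10. It was -0.76 among replicates 1 to 3 and -0.56 among replicates 4 to 11. The dimmer probe gave 7.67 ± 0.27 in ANTI-210 mice and 8.16 ± 0.19 in SCR mice, a difference of -0.49 with a standard error of 0.10. Over the mice of a group the 2 probes of Ap1m1 correlated with r = 0.91 (rho = 0.85) in ANTI-210 mice and r = 0.93 (rho = 0.78) in SCR mice, each with an adjusted p of 0.0014 over 20 such comparisons of probes (permutation test). Of these 20 comparisons over all members 9 had an adjusted p under 0.05, and not every pair of probes varied together, with r = -0.11 for Ap1g1 in SCR mice (rho = 0.07, adjusted p = 0.748, permutation test) and -0.49 for a further probe of Ap2b1 in ANTI-210 mice (rho = -0.67, adjusted p = 0.196, permutation test).

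ANTI-210 replicate 5 was high in both genes. Its Ap1m1 level of 9.58 was the highest of its group and lay within the SCR range. Cilp2, a matrix gene chosen after its values were seen, was near the floor of the arrays (a mean under 6), with a mean of 5.45 in ANTI-210 mice and 4.87 in SCR mice. In this mouse it measured 5.73, where the ANTI-210 mice ran from 5.18 to 5.74 and the SCR mice from 4.64 to 5.33.

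**Figure D1:**
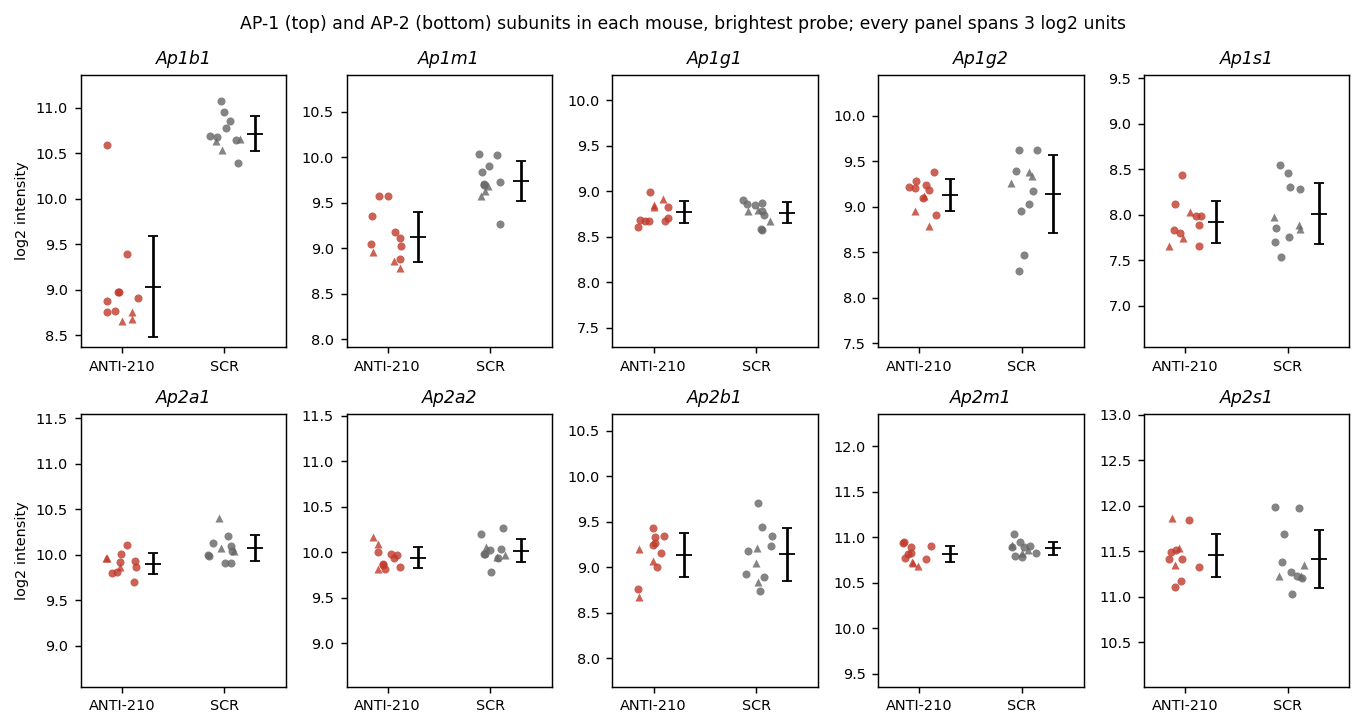
Log2 intensity of the brightest probe of each subunit in every mouse, with AP-1 subunits in the top row, AP-2 subunits in the bottom row and ANTI-210 left of SCR in each panel. Points are mice (triangles, replicate numbers 1 to 3), bars are the mean ± SD (n = 11 each), and every panel spans 3 log2 units. In the Ap1b1 panel, ANTI-210 replicate 5 (10.59) is the sole ANTI-210 mouse inside the SCR range.

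The remaining AP-1 subunits showed no such separation. Ap1g1, a gamma subunit, averaged 8.77 ± 0.12 in ANTI-210 mice and 8.77 ± 0.11 in SCR mice, a difference of 0.0018 with a standard error of 0.049. Ap1g2, the other gamma subunit, averaged 9.13 ± 0.18 in ANTI-210 mice and 9.14 ± 0.43 in SCR mice. All 11 ANTI-210 mice lay within its SCR range of 8.29 to 9.62, and 3 of its 4 probes were near the floor. Its difference of -0.01 moved with the mice compared, to -0.37 among replicates 1 to 3, 0.12 among replicates 4 to 11 and -0.23 without SCR replicates 6 to 8. Ap1s1, the sigma subunit, averaged 7.92 ± 0.23 in ANTI-210 mice and 8.01 ± 0.33 in SCR mice, and its 3 probes gave differences of -0.09, -0.15 and -0.08 with standard errors near 0.1.

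Among AP-2 subunits the largest difference was that of Ap2a1, an alpha subunit, which was lower in ANTI-210 mice at both of its probes. The brighter probe measured 9.70, 9.92 and 10.11 (lowest, median and highest) in ANTI-210 mice, against 9.91, 10.04 and 10.40 in SCR mice, so the groups overlapped, and 5 of 11 ANTI-210 mice lay below the lowest SCR mouse. The difference was -0.17 with a standard error of 0.05, or 88.9% of the SCR level, and -0.14 at the second probe. At the brighter probe it was -0.24 among replicates 1 to 3 and -0.14 among replicates 4 to 11. Ap2a2, the other alpha subunit, differed by -0.08 and Ap2m1, the mu subunit, by -0.06. Ap2b1, the beta subunit of AP-2 and the close relative of Ap1b1, averaged 9.13 ± 0.24 in ANTI-210 mice and 9.14 ± 0.29 in SCR mice, and its 5 probes differed by -0.10 to 0.02. Ap2s1, the sigma subunit, averaged 11.46 ± 0.24 in ANTI-210 mice and 11.42 ± 0.32 in SCR mice, a difference of 0.04 that was 0.32 among replicates 1 to 3, -0.06 among replicates 4 to 11 and 0.22 without SCR replicates 6 to 8.

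Counted over probes, 5 of the 24 had an unadjusted limma p under 0.05, all lower in ANTI-210 mice, where 3.41% of all probes passed in either direction and 1.94% passed as lower. The 5 probes were the probe of Ap1b1, both probes of Ap1m1 and both probes of Ap2a1. Over genes, 3 of 10 passed, all lower, where 3.47% of all genes passed in either direction and 2.01% passed as lower. Of the 10 genes, 8 had a negative difference, where 52.2% of all genes had one. The median difference was -0.09 over the 5 AP-1 genes, -0.06 over the 5 AP-2 genes and -0.0036 over all genes. As the genes were chosen with this contrast known, these counts describe the selection. Of 10 endothelial markers 5 also passed, and the mean of the list was higher in ANTI-210 mice, by 0.14. That mean ran from 9.001 to 9.44 in ANTI-210 mice and from 8.85 to 9.24 in SCR mice, with Kdr and Erg near the floor. Of 11 macrophage markers 0 passed, but the mean of this list was also higher in ANTI-210 mice, by 0.31. That mean varied more between mice (SD 0.76 in ANTI-210 mice and 0.90 in SCR mice). It ran from 9.15 to 11.4 in ANTI-210 mice and from 8.73 to 11.5 in SCR mice, with Itgam near the floor. The list means of fibroblast, regenerating fibre and mature muscle fibre markers were higher by 0.24, 0.18 and 0.01 in that order. In whole muscle, fewer cells of a type and less RNA per cell cannot be told apart, and the part of cell makeup in the differences of Ap1b1 and Ap1m1 was not tested.

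**Figure D2:**
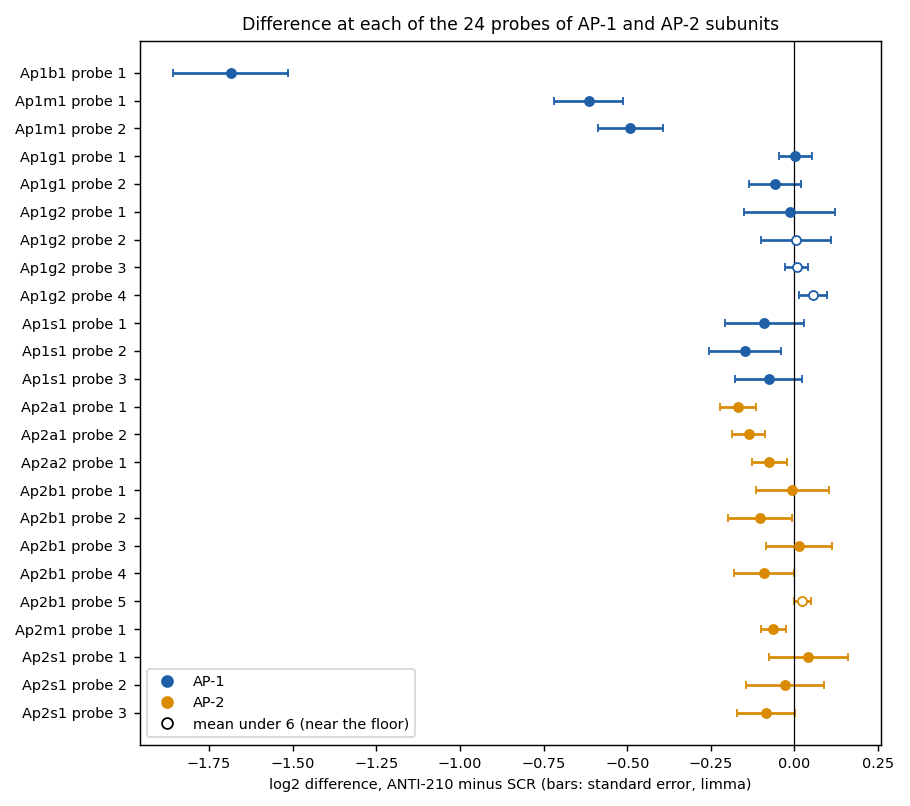
Difference in log2 intensity, ANTI-210 minus SCR, at each of the 24 probes, with AP-1 in blue and AP-2 in orange. Bars are the standard error from limma (n = 11 each), and open points are probes with a mean under 6. The probes of Ap1b1 (-1.69) and Ap1m1 (-0.61 and -0.49) lie apart from the other 21, which run from -0.17 to 0.06.

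The measured genes next to Ap1b1 and Ap1m1 differed by -0.11 to 0.18. Thoc5, on one side of Ap1b1, averaged 8.93 ± 0.22 in ANTI-210 mice and 8.96 ± 0.14 in SCR mice. Gas2l1, on its other side, averaged 7.58 ± 0.42 in ANTI-210 mice and 7.39 ± 0.53 in SCR mice. Klf2, on one side of Ap1m1, differed by -0.11 with a standard error of 0.17, and Fam32a, on its other side, was near the floor. None of the 4 neighbours had an unadjusted limma p under 0.05. The annotated span of Ap1b1 overlaps that of Nefh, a neurofilament gene that no probe with a single symbol measured.

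The question of whether the rest of the clathrin pathway moved with these subunits was addressed with 6 lists of related genes, 97 in all, of which 86 were measured and 17 of those were near the floor. Of the 86, 5 had an unadjusted limma p under 0.05, 2 higher and 3 lower in ANTI-210 mice, where 1.45% of all genes passed as higher and 2.01% as lower. After adjustment over all genes 0 of the 86 passed, where 0.0162% of all genes did. The median difference over the 86 genes was 0.0018.

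The other adaptor subunits, which include further AP-1 subunits and those of AP-3, AP-4 and AP-5, gave 1 of 16 past the threshold. This was Ap3m1, the mu subunit of AP-3, at 6.74 ± 0.14 in ANTI-210 mice and 6.88 ± 0.16 in SCR mice (difference -0.14, p = 0.0444 in limma, unadjusted). Ap1m2, the epithelial counterpart of Ap1m1, was near the floor, with a mean of 4.59 over all mice. Ap5s1 differed by -0.15 and Ap3b1 by -0.14 without passing.

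Of the clathrin chains, Clta and Cltc were read, and neither passed in either direction. Clta, a light chain, averaged 11.60 ± 0.34 in ANTI-210 mice and 11.51 ± 0.34 in SCR mice, and Cltc, a heavy chain, averaged 7.80 ± 0.17 in ANTI-210 mice and 7.81 ± 0.20 in SCR mice. These 2 genes were named after their values were seen. Of the 9 genes for clathrin and its uncoating, 0 passed. Hip1, a clathrin-binding protein with the smallest p of the list, differed by 0.15 with a standard error of 0.08 and was near the floor, with a mean of 4.99. Gak, a kinase that takes part in uncoating, differed by 0.16 with a standard error of 0.18, and Synj2 by -0.15 with a standard error of 0.11.

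Of 27 adaptor partners and endocytic accessory proteins, 2 were higher and 1 was lower in ANTI-210 mice. Eps15l1, a scaffold of endocytic pits, averaged 10.27 ± 0.11 in ANTI-210 mice and 10.39 ± 0.07 in SCR mice (p = 0.00728 in limma, unadjusted), although its other probe differed by 0.05. Numb, an endocytic adaptor, was higher by 0.10 and Aftph, a partner of AP-1, by 0.13. The further probes of Numb ran from -0.02 to 0.10 and those of Aftph from -0.05 to 0.05.

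Of 13 genes for the GGA adaptors and for the recruitment of AP-1 to the Golgi, Gga1 alone passed, at 7.94 ± 0.16 in ANTI-210 mice and 8.14 ± 0.25 in SCR mice (p = 0.0404 in limma, unadjusted), and its 2 other probes differed by -0.17 and -0.07. Pi4kb, a kinase that makes Golgi phosphatidylinositol 4-phosphate, differed by -0.10. Among 12 cargo receptors 0 passed, and their differences lay between -0.07 and 0.08. Sort1, or sortilin, differed by -0.05, the protease Furin by 0.08, the insulin receptor gene Insr by -0.07 and M6pr, a mannose 6-phosphate receptor, by 0.07. Of 9 subunits of COPI, a coat of another kind, 0 passed and the differences lay between -0.13 and 0.13.

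How the subunits varied from mouse to mouse within a group does not use the difference between the group means. ANTI-210 replicate 5, however, had Ap1b1 (10.59) and Ap1m1 (9.58) within the SCR range. Correlations of Ap1b1 and Ap1m1 in ANTI-210 mice that include this mouse are therefore not free of that difference. All 45 pairs of subunits were correlated in each group, and the 90 p-values of Pearson's r were adjusted together (permutation test with 100000 resamples, two-sided). In ANTI-210 mice 2 pairs had an adjusted p under 0.05, against 9 pairs in SCR mice, of which 4 were positive and 5 negative. AP-1 pairs gave 1 of 10 in ANTI-210 mice and 3 of 10 in SCR mice, and AP-2 pairs gave 0 of 10 in ANTI-210 mice and 1 of 10 in SCR mice. The smallest size of r that passed was 0.74. At least this r was reached by 4.44% of the member pairs in ANTI-210 mice and by 24.4% in SCR mice. Among all pairs of genes not near the floor, 27.2% reached it in ANTI-210 mice and 31.6% in SCR mice.

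**Figure D3:**
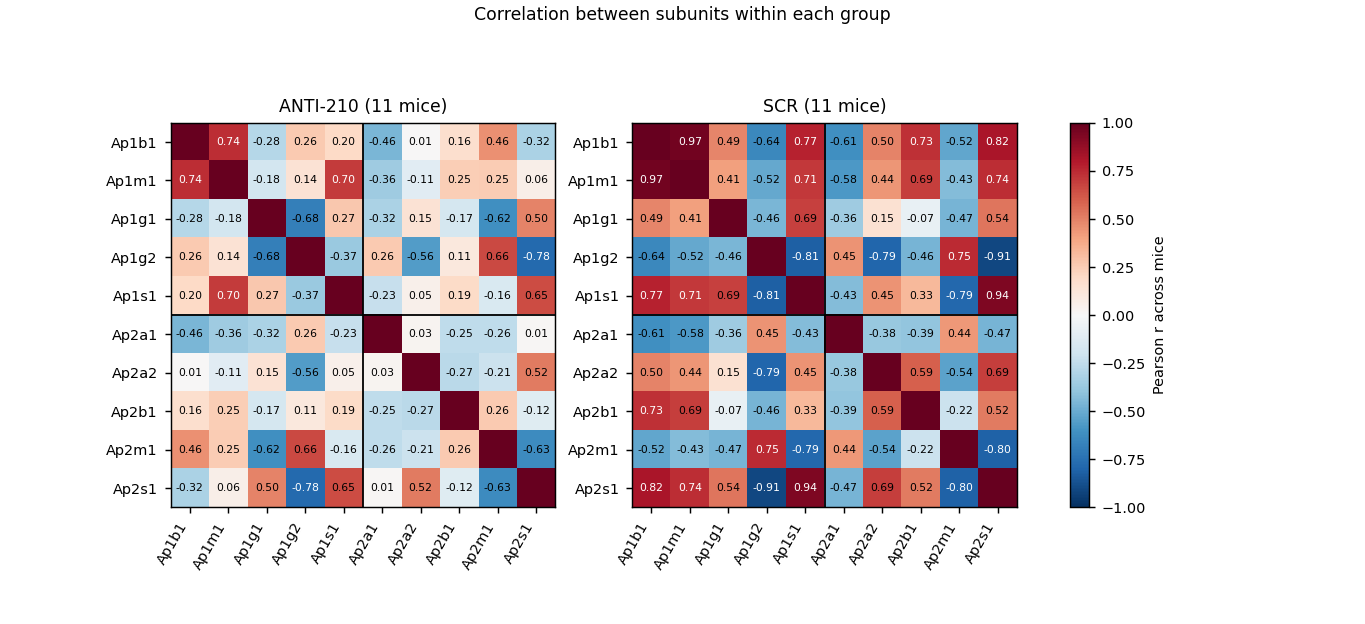
Pearson r between the brightest probes of the 10 subunits across the 11 ANTI-210 mice (left) and the 11 SCR mice (right). Black lines separate AP-1 from AP-2 subunits, and the colour scale runs from -1 (blue) to 1 (red). The pair Ap1b1 and Ap1m1 has r = 0.74 in ANTI-210 mice and r = 0.97 in SCR mice.

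Ap1b1 and Ap1m1 varied together in both groups. In ANTI-210 mice r was 0.74 and rho 0.70 (adjusted p = 0.0352 for r and 0.15 for rho, permutation test), and r fell to 0.35 without the 2 mice farthest from the median of Ap1b1, replicates 5 and 11, so the relation in this group rested on them. In SCR mice r was 0.97 and rho 0.95 (adjusted p = 0.00045 for r and 0.0027 for rho, permutation test), with r = 0.98 without the 2 farthest mice and 0.97 without replicates 6, 7 and 8. Among replicates 4 to 11 alone, r was 0.70 in ANTI-210 mice and 0.97 in SCR mice, and numbers 1 to 3 hold too few mice for a correlation. With the first principal component taken out it was 0.80 in ANTI-210 mice and 0.95 in SCR mice. Ap1m1 changed by 0.36 log2 units per unit of Ap1b1 in ANTI-210 mice and by 1.11 in SCR mice, and the ANTI-210 value was 0.83 without replicate 5. The difference in correlation between the groups was not tested.

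A comparison with 8827 genes of mean 6 or more placed this pair in context. Over the 22 deviations from the group means, Ap1m1 was the gene most like Ap1b1, with r = 0.74, followed by Mterf1a (0.69), Tmem127 (0.64), Atrnl1 (0.63) and Kdm2b (0.61). Those most opposed to Ap1b1 were Myorg (-0.64), Pld2 (-0.61), Parp8 (-0.60), Sgk1 (-0.59) and Bcas3 (-0.58). For Ap1m1, Ap1b1 ranked 16th, behind Tmem127 (0.81), Slc35e3 (0.80), Mterf1a (0.80), Tctex1d2 (0.80), Lsm10 (0.78) and others. Pnpla3 (-0.77), Ankrd11 (-0.77), Amotl1 (-0.74), H2bc15 (-0.73) and Rp9 (-0.72) were the most opposed to Ap1m1. ANTI-210 replicate 5 lay far from its group mean in Ap1b1, and without it r was 0.84, with Ap1m1 the 3rd gene by likeness to Ap1b1 and Ap1b1 the 4th by likeness to Ap1m1. The likeness was uneven between the groups for some of these genes, as for Atrnl1, with r = 0.83 to Ap1b1 in ANTI-210 mice and 0.17 in SCR mice. Cell makeup varied across these mice, so the values are descriptions.

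**Figure D4:**
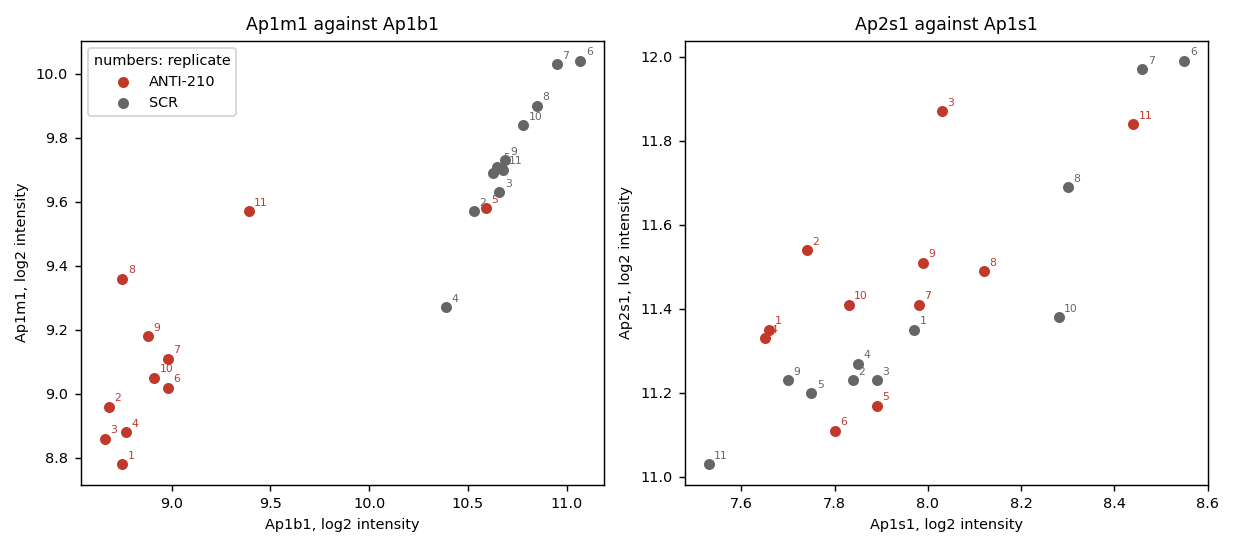
Ap1m1 against Ap1b1 (left) and Ap2s1 against Ap1s1 (right), log2 intensity of the brightest probes, with ANTI-210 mice in red, SCR mice in grey and replicate numbers beside the points. In the left panel ANTI-210 replicate 5 (10.59 and 9.58) lies among the SCR mice. In the right panel the groups overlap, and SCR replicates 6 and 7 are at the upper end.

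The small subunits Ap1s1 and Ap2s1, one from each complex, varied together in SCR mice. Their r was 0.65 in ANTI-210 mice (rho = 0.61, adjusted p = 0.127 for r, permutation test) and 0.94 in SCR mice (rho = 0.95, adjusted p = 0.00045 for r, permutation test). In SCR mice r was 0.89 without the 2 mice farthest from the median and 0.90 without replicates 6 to 8, and 0.62 with the first principal component taken out. Among replicates 4 to 11 it was 0.83 in ANTI-210 mice and 0.94 in SCR mice. Besides Ap1b1 with Ap1m1, 1 pair passed in both groups, and it was negative. For Ap1g2 with Ap2s1, r was -0.78 in ANTI-210 mice and -0.91 in SCR mice (adjusted p = 0.0419 and 0.0213 in that order, permutation test), and it was -0.39 in ANTI-210 mice without the 2 farthest mice and -0.34 in SCR mice without replicates 6 to 8. Among replicates 4 to 11 it was -0.68 in ANTI-210 mice and -0.91 in SCR mice. By rank this pair did not pass, with rho = -0.67 in ANTI-210 mice and -0.66 in SCR mice (adjusted p = 0.155 and 0.158 in that order, permutation test), and with the first principal component taken out r was -0.08 in ANTI-210 mice and 0.13 in SCR mice.

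The remaining 6 pairs that passed in SCR mice were weaker without replicates 6 to 8. Without these 3 mice r was 0.22 for Ap1b1 with Ap1s1, 0.03 for Ap1b1 with Ap2s1, -0.28 for Ap1g2 with Ap1s1, -0.23 for Ap1g2 with Ap2a2, -0.50 for Ap1s1 with Ap2m1 and -0.61 for Ap2m1 with Ap2s1. In the 8 SCR mice that were left, 0 of 45 pairs had an adjusted p under 0.05, with both groups adjusted together as above. Ap1b1 with Ap1m1 still had r = 0.97 in these mice (unadjusted p = 0.00097, permutation test). Ap1s1 with Ap2s1 had r = 0.90 (unadjusted p = 0.0071, permutation test). Leaving out SCR replicate 6, 7, 8 or 9 alone left 2, 2, 2 and 3 pairs, and leaving out SCR replicate 10 gave 14 pairs. In ANTI-210 mice, 0 pairs were left without replicate 11 and 1 pair without replicate 1, 2, 4, 5, 7 or 9.

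Subunits were then set against the mean of marker lists for 5 cell types, 100 comparisons in all, of which 33 had an adjusted p under 0.05. The smallest size of r that passed was 0.72. It was reached by 10 of the 50 comparisons of members in ANTI-210 mice and by 23 of the 50 in SCR mice, where 40.7% of those of all genes of mean 6 or more reached it in ANTI-210 mice and 47.1% in SCR mice. For the macrophage list alone it was reached by 3 of 10 members in ANTI-210 mice and by 6 of 10 in SCR mice, where 55.5% of all such genes reached it in ANTI-210 mice and 58.7% in SCR mice. The shares among the members were thus near or below those of all such genes. Ap2s1 and Ap1g2 moved in opposite directions with the macrophage markers. For Ap2s1, r with 11 macrophage markers was 0.92 in ANTI-210 mice and 0.97 in SCR mice (rho = 0.89 and 0.78), each with an adjusted permutation p of at most 0.00122. It was 0.85 in ANTI-210 mice and 0.90 in SCR mice without the 2 farthest mice, and 0.94 in ANTI-210 mice and 0.99 in SCR mice among replicates 4 to 11. For Ap1g2, r was -0.79 in ANTI-210 mice and -0.93 in SCR mice (rho = -0.77 and -0.82, adjusted p = 0.0154 and 0.00122, permutation test), and -0.85 in ANTI-210 mice and -0.77 in SCR mice without the 2 farthest. Among replicates 4 to 11 it was -0.69 in ANTI-210 mice and -0.94 in SCR mice.

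Ap2m1 was also lower in mice with more macrophage signal, with r = -0.79 in ANTI-210 mice and -0.89 in SCR mice (rho = -0.75 and -0.89, adjusted p = 0.0208 and 0.001, permutation test). Without replicates 6 to 8 the SCR value was -0.89, and among replicates 4 to 11 it was -0.79 in ANTI-210 mice and -0.93 in SCR mice. Ap1s1 was higher in SCR mice with more macrophage signal, r = 0.91 (rho = 0.86, adjusted p = 0.001, permutation test), and gave r = 0.48 in ANTI-210 mice (rho = 0.38, adjusted p = 0.245, permutation test), while among replicates 4 to 11 it was 0.75 in ANTI-210 mice and 0.92 in SCR mice. Without replicates 6 to 8 the SCR value of Ap1s1 was 0.67. Ap1s1 and Ap2s1 followed the regenerating fibre markers in SCR mice too, with r = 0.95 for Ap1s1 and 0.96 for Ap2s1, and the macrophage and regenerating fibre lists themselves both followed the first component. Ap1g1, Ap2a1 and Ap2b1 had no adjusted p under 0.05 with macrophage markers in either group.

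For Ap1b1 the relation to macrophage markers rested on a few SCR mice, and for Ap1m1 it passed in neither group. With these markers r was -0.39 for Ap1b1 in ANTI-210 mice (rho = -0.51) and 0.74 in SCR mice (rho = 0.43), with an adjusted p of 0.387 in ANTI-210 mice and 0.0346 in SCR mice (permutation test). In SCR mice it was 0.29 without the 2 farthest mice and -0.29 without replicates 6 to 8. In ANTI-210 mice it was 0.0027 without replicate 5. Among replicates 4 to 11 it was -0.24 in ANTI-210 mice and 0.76 in SCR mice. For Ap1m1, r was -0.05 in ANTI-210 mice and 0.65 in SCR mice (rho = -0.16 and 0.38, adjusted p = 0.922 and 0.084, permutation test). Both genes passed with mature muscle fibre markers in SCR mice. There r was -0.84 for Ap1b1 and -0.72 for Ap1m1 (rho = -0.75 and -0.65, adjusted p = 0.0038 and 0.0346 for r, permutation test). Without replicates 6 to 8 these r were -0.15 and 0.04. In ANTI-210 mice they were -0.03 and -0.40, and neither passed. Without ANTI-210 replicate 5 the ANTI-210 values were -0.59 for Ap1b1 and -0.61 for Ap1m1. Ap1b1 also passed in SCR mice with fibroblast (r = 0.75) and regenerating fibre markers (r = 0.72). The endothelial markers, of which 5 of 10 had an unadjusted p under 0.05 between the groups, gave 0 of 10 subunits with an adjusted p under 0.05 in ANTI-210 mice and 0 of 10 in SCR mice. No difference in these correlations between the groups was tested.

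**Figure D5:**
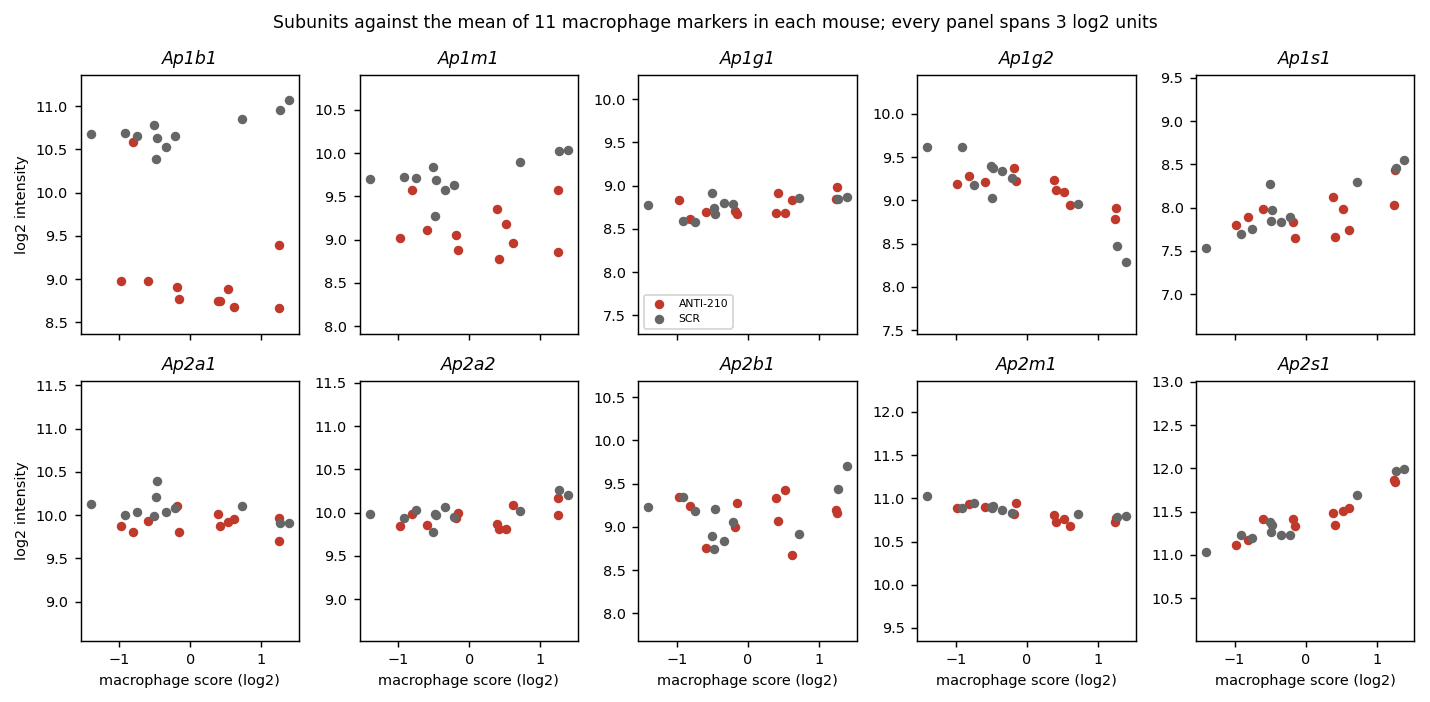
Log2 intensity of each subunit (vertical axis, every panel spans 3 log2 units) against the mean of 11 macrophage markers relative to all mice (horizontal axis, log2), with ANTI-210 mice in red and SCR mice in grey. Ap2s1 climbs with the markers (r = 0.92 in ANTI-210 mice and 0.97 in SCR mice), Ap1g2 declines, and the 2 groups of Ap1b1 stay apart along the axis except for ANTI-210 replicate 5.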

How the data were processed

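The values the authors deposited are log2 intensities of 38563 probes on 22 arrays, summarised in GenomeStudio, quantile normalized and filtered with beadarray. The limits of that filter were not stated, log2 was inferred from the range of 4.35 to 15.4, and the chip position of each array is unknown. The number of arrays limits the precision (median standard error of a difference 0.067), and quantile normalization can hide a shift shared by most genes. Groups and replicate numbers came from the labels, and 0 columns were left without a sample.

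ANTI-210 minus SCR was fitted over all probes with limma 3.58.1 in R 4.3.3, with Benjamini-Hochberg adjustment. The brightest probe over all mice stood for its gene, and a mean under 6 was called near the floor. Correlations were computed within groups in Python 3.11.15 (scipy 1.17.1). The text names all member probes, up to 4 genes with the smallest p per pathway list, the 5 genes most like and most unlike Ap1b1 and Ap1m1, and the nearest measured neighbours. Members and lists were chosen with earlier results of these data known. Alternatives were other normalizations, variance models, filters, covariates and subsets of mice. The scripts were tested on simulated data.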

Additional observations from a re-analysis of the deposited data

How the results depend on the processing

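Under every alternative run, Ap1b1 (-1.91 to -1.60) and Ap1m1 (-0.76 to -0.52) stayed lower in ANTI-210 mice. Leaving out 1 mouse gave -1.84 to -1.65 for Ap1b1 and -0.66 to -0.58 for Ap1m1. Counts with an unadjusted p under 0.05 depended more on the setting. Of all probes 1316 passed, against 3628 with array weights, 492 among brighter probes, 2298 with principal component 1 as a covariate, 11283 in replicate numbers 1 to 3 and 7567 without SCR numbers 6 to 8 (chosen after seeing the data), and 1110 to 1792 with 1 mouse left out. Of the member probes 5 passed, against 8 in numbers 1 to 3, 9 without SCR numbers 6 to 8, and 5 to 6 with 1 mouse left out. Of the pathway genes 5 passed, against 3 with cyclic loess, 0 with trend and robust variance, 13 with array weights, 2 among brighter probes, 9 with the component as a covariate, 40 in numbers 1 to 3, 3 in numbers 4 to 11, 33 without SCR numbers 6 to 8, 1 with the mean of a gene's probes, and 1 to 8 with 1 mouse left out (1 without ANTI-210 replicate 11, 2 without SCR replicate 2 or 4, 3 without ANTI-210 replicate 8 or 9, 8 without SCR replicate 6). Correlated pairs in ANTI-210 mice numbered 2, against 0 with Spearman's rho, 0 after removing the component, 0 in numbers 4 to 11 and 0 to 2 with 1 mouse left out. In SCR mice they numbered 9, against 2 with rho, 1 after removing the component, 3 in numbers 4 to 11, 0 without SCR numbers 6 to 8 and 2 to 14 with 1 mouse left out. The causes were not tested. The values gave no clear sign that replicate numbers paired the mice, and the labels do not say. Of 11 same-numbered pairs 4 correlated above 0.1 (range -0.66 to 0.64), and 2 of 22 samples correlated best with their own number. With the replicate number as a block, 1305 probes, 5 member probes and 6 pathway genes passed, with -1.69 for Ap1b1 and -0.61 for Ap1m1. Signal limits 4 of the 24 member probes, which were near the floor.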
